A study of Mus musculus with 8 samples.

Results

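The genes described here are those of the ubiquitin-conjugating enzymes, or E2 enzymes, taken as every gene whose single annotated symbol starts with Ube2. That rule gave 33 genes of the 18193 that could be named, and each was read by its brightest probe set over the 8 arrays. A probe set is a group of short array probes read together, and some probe sets match more than 1 transcript or gene. By their names and known roles, 31 of the 33 are E2 enzymes or E2 variants. The other members are Ube2cbp, an E2-binding protein also called Ube3d, and Ube2d-ps, a pseudogene by its name. Ube2m, a NEDD8 E2, is not analysed here.

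All arrays came from NG4, a mouse embryonic stem cell line, collected 48 h after reverse transfection, in which cells are plated onto the transfection mix. The 4 groups differed in the small interfering RNA (siRNA): siNonTarget, the non-targeting control, and siSox2, siPsmd14 and siDdb1, with 2 arrays each. Sox2 is a transcription factor of pluripotency, Psmd14 the deubiquitinase of the proteasome lid, and Ddb1 the adaptor of CUL4 ubiquitin ligases. The labels name no siRNA sequence and do not say whether replicates were separate cultures. The p-values therefore reflect array-to-array spread alone, and that spread may be technical.

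Ubiquitin is activated by an E1 enzyme, passed to the catalytic cysteine of an E2, and transferred to a substrate with the help of an E3 ligase. The E2 often decides which kind of ubiquitin chain is built, and E2 variants such as Ube2v1 lack the cysteine and work bound to an active E2. Embryonic stem cells divide rapidly, and the anaphase-promoting complex, an E3 that ends mitosis, uses dedicated E2s.

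Array medians lay between 27.37 and 28.83 intensity units. On the arrays of the siRNA against it, Ddb1 read 9.67 and 10.73 log2 units against 11.88 and 11.81 in the control (log2 fold change -1.65, limma adjusted p = 0.147). Sox2 differed by -0.38 in siSox2 (adjusted p = 0.301) and Psmd14 by -0.21 in siPsmd14 (adjusted p = 0.522), so none of the 3 targets passed the threshold against siNonTarget in limma. Against the other knockdowns Ddb1 did pass, being -1.92 in siDdb1 relative to siSox2 (limma adjusted p = 0.00888) and 1.87 in siPsmd14 relative to siDdb1 (adjusted p = 0.0321). Group names stand for the library labels. None of the 12 embryonic stem cell markers on the list was below the array median on both arrays of a group. In siSox2, 11 of the 12 lay below the control (median log2 fold change -0.39), where 44.8% of all genes lay above it. Sox2, the target of that siRNA, is itself 1 of these 11. Esrrb fell there (-0.58, limma adjusted p = 0.0399), a call lost without any 1 array of siNonTarget, siSox2 or siDdb1 (0.0527 to 0.292). In siPsmd14 all 12 lay below the control (median -0.44), where 47.4% of all genes lay above it, with none called in limma. In siDdb1 11 lay below the control (median -0.21), where 46.8% of all genes lay above it, also with none called. Their summed intensity was 61402 to 66946 in siNonTarget, 51381 to 55332 in siSox2, 51709 to 55369 in siPsmd14 and 57214 to 59111 in siDdb1. Of the 11 measured trophectoderm markers, 8 rose in siSox2, with the smallest p for Plac1 (log2 fold change 6.23), Krt7 (4.47) and Ascl2 (3.50). Of all genes, 2.81% were called as higher in that comparison. In siPsmd14, 3 rose, the keratins Krt8 (2.63), Krt18 (2.37) and Krt7 (1.94), where 1.89% of all genes were called in either direction. No other marker of this list was called there, and 2 of the 11 lay below the control. Elf5 was below the array median on both arrays of every group. Among 18 markers of fibroblasts, the usual feeder cells, 2 rose in siSox2, Tagln (1.87) and Pdgfrb (1.42), and 1 fell, Thy1 (-1.06). Of all genes, 4.28% were called there in either direction. In siPsmd14, 2 rose, Tagln (1.66) and S100a4 (1.18), beside 1.89% of all genes called in either direction. The trophectoderm and fibroblast calls were not tested by leaving out arrays. The collagens Col1a1 and Col3a1 were below the array median on both arrays of every group.

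Most Ube2 genes were well measured in these cells, and few differed between groups. Of the 33 genes, 29 lay above the array median on all 8 arrays, and 3 (Ube2d2b, Ube2l6 and Ube2u) lay below it on all 8. Ube2h rose in siSox2, and Ube2o was higher in siPsmd14 than in siSox2. No other member passed the threshold, an adjusted p of 0.05 over all 45037 probe sets, in any of the 6 comparisons. Each probe set has its own response, so an order of members by brightness is one of array signal and not of transcript abundance.

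The spread of the family was like that of other genes. Within a group, the 2 arrays had a median SD of 0.13 log2 units over the 33 members and 0.15 over all 18193 genes. The median range over the 8 arrays was 0.50 for the members and 0.53 for all genes. The median SE of a member's log2 fold change was 0.14. The median 95% confidence interval, not adjusted for the number of probe sets, was 0.32 to either side. A difference of that size or less could therefore not be told from 0 for a typical member.

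Against siNonTarget, 1 of the 33 members was called in siSox2, beside 4.28% of all genes called in that comparison and 2.81% called as higher. In siPsmd14 limma called 0 members, beside 1.89% of all genes, and in siDdb1 0 members, beside 0.0440%. At an unadjusted p under 0.05 the members numbered 6 in siSox2 (4 higher and 2 lower), 7 in siPsmd14 (5 higher and 2 lower) and 2 in siDdb1 (1 of each). The same unadjusted p was reached by 19.1% of all genes in siSox2, 17.1% in siPsmd14 and 9.86% in siDdb1, against 18.2%, 21.2% and 6.06% of the members.

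The direction of the family was mixed. In siSox2, 15 members lay above the control and 18 below, where 44.8% of all genes lay above, and the median log2 fold change was -0.05 against -0.03 over all genes. In siPsmd14 the split was also 15 above and 18 below, where 47.4% of all genes lay above, with medians of -0.03 and -0.01. In siDdb1 it was 13 above and 20 below, where 46.8% of all genes lay above, with medians of -0.06 and -0.01.

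Some members had groups that did not overlap. In siSox2, 12 members (36.4%) had both arrays above both controls, where 23.3% of all genes did, and 10 (30.3%) had both below, where 29.3% did. In siPsmd14 the members numbered 8 above (24.2%, against 22.4% of all genes) and 9 below (27.3%, against 24.1%). In siDdb1 they numbered 8 above (24.2%, against 19.8%) and 8 below (24.2%, against 22.3%). Of the 24 members with several probe sets, 19 had both of their brightest above the array median on all 8 arrays. In 14 of these the 2 probe sets had the same sign in siSox2, in 14 in siPsmd14 and in 12 in siDdb1. The 3 comparisons share the control arrays.

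**Figure D1:**
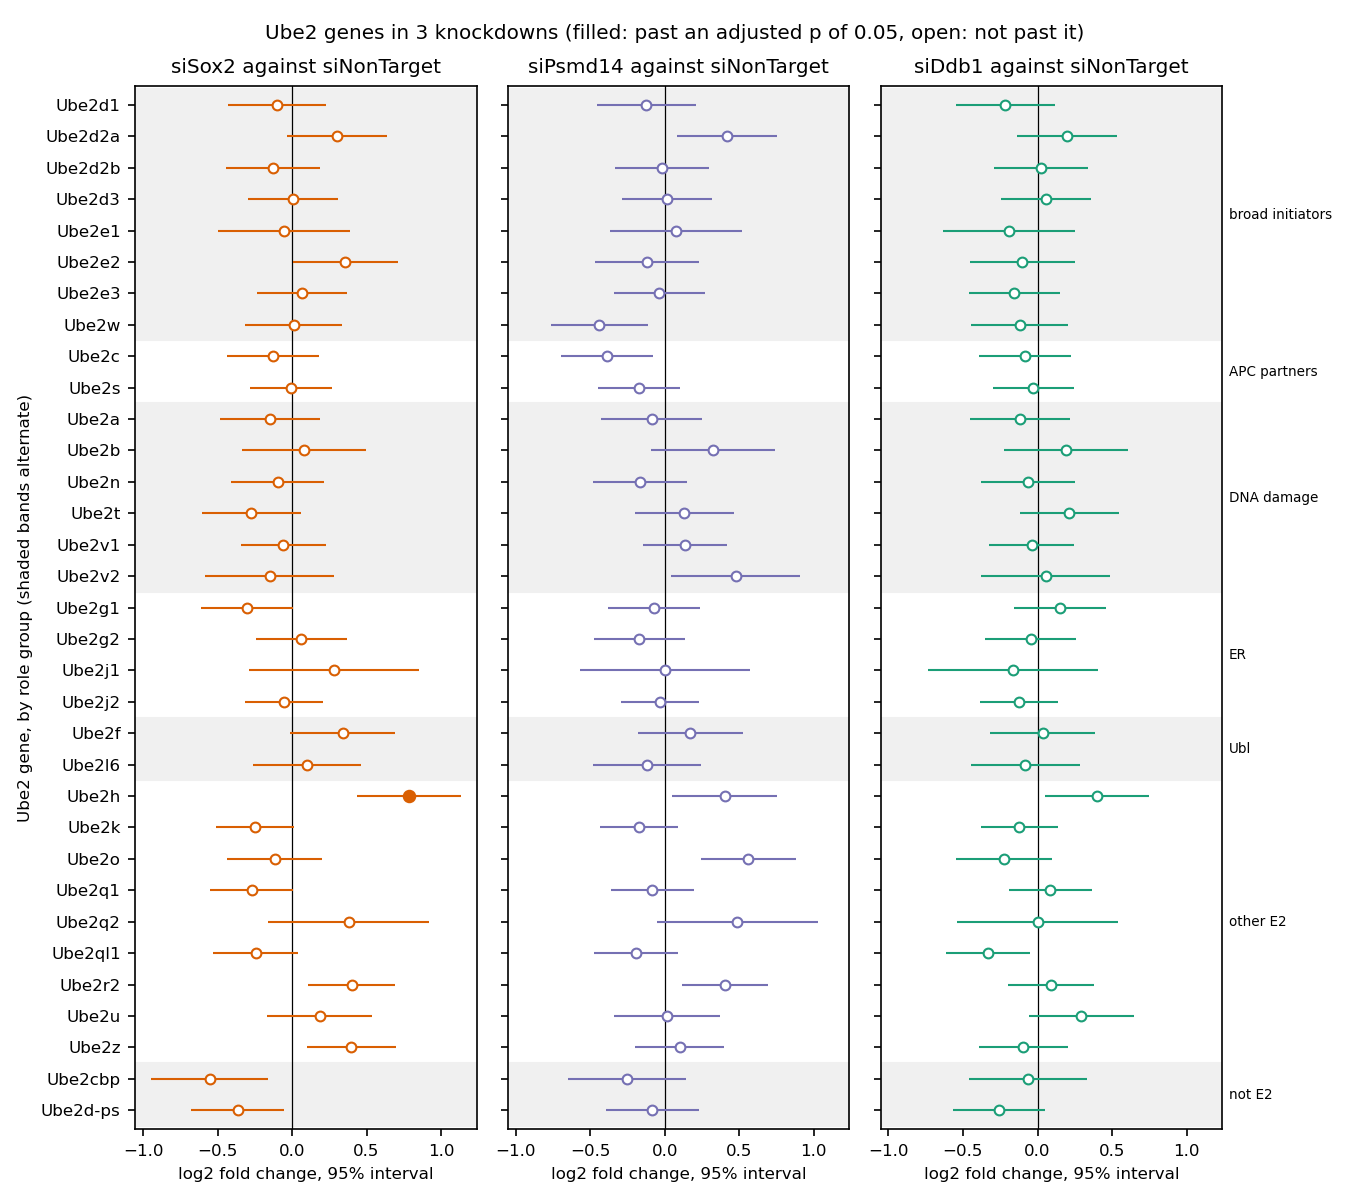
Log2 fold change of each Ube2 gene (rows) against siNonTarget in siSox2, siPsmd14 and siDdb1 (panels), with 95% confidence intervals as bars from limma and 2 arrays per group. Filled points passed an adjusted p of 0.05: only Ube2h in siSox2, at 0.78, did.

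The knockdowns were also compared directly with each other. Between siPsmd14 and siSox2, 1 of the 33 members was called, beside 4.03% of all genes called and 1.98% called as higher, with 7 members (21.2%) at an unadjusted p under 0.05, against 19.5% of all genes. Between siDdb1 and siSox2 limma called 0 members, beside 4.63% of all genes, with 8 members (24.2%) at an unadjusted p under 0.05, against 19.0% of all genes. Between siPsmd14 and siDdb1 limma called 0 members, beside 0.588% of all genes, with 2 members (6.06%) at an unadjusted p under 0.05, against 12.4% of all genes. The members farthest from 0 in siDdb1 relative to siSox2 were Ube2z, an E2 charged by Uba6 (-0.49, limma adjusted p = 0.0953), and Ube2cbp (0.49, adjusted p = 0.218), and neither passed.

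**Figure D2:**
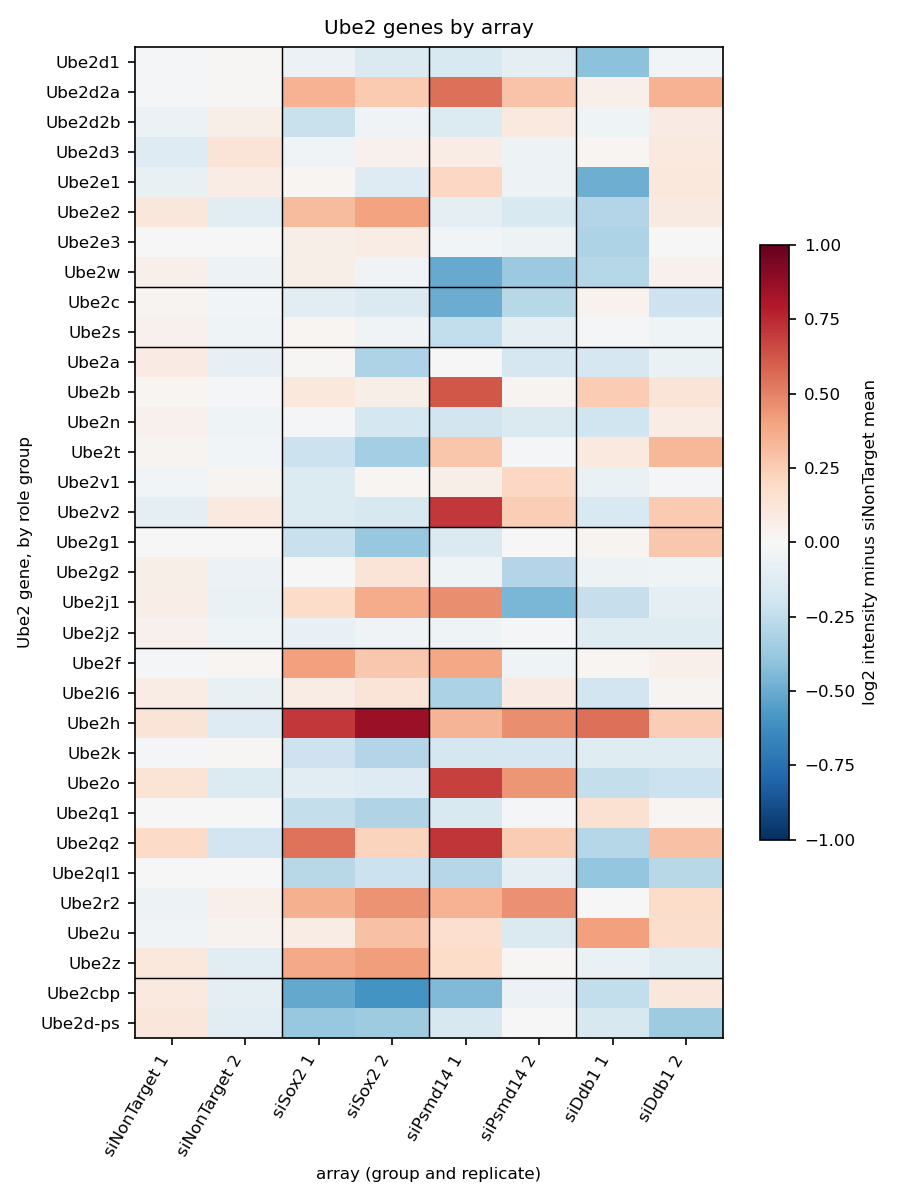
Log2 level of each Ube2 gene (rows) on each of the 8 arrays (columns), shown as the difference from that gene's mean over the 2 siNonTarget arrays, by colour in log2 units. Most rows show differences of mixed sign, Ube2h is higher on all 6 knockdown arrays, and Ube2o is highest on both siPsmd14 arrays.

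Ube2h is the E2 of the CTLH ligase, also known as the GID complex. Its brightest probe set read 8.56 and 8.31 log2 units in siNonTarget, 9.14 and 9.30 in siSox2, 8.78 and 8.90 in siPsmd14, with 8.99 and 8.68 in siDdb1. All 6 knockdown arrays were higher than both control arrays, and both siSox2 arrays were higher than the other 6. The siSox2 difference was 0.78 log2 units, or 1.72-fold, with an SE of 0.15 and an interval of 0.43 to 1.13 (limma adjusted p = 0.0326).

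The siPsmd14 difference of Ube2h was 0.40 (interval 0.05 to 0.75, limma adjusted p = 0.276), and the siDdb1 difference was 0.40 (interval 0.05 to 0.75, adjusted p = 0.551). Neither passed the threshold, and all 3 differences share the control arrays. Compared directly, Ube2h was -0.38 in siPsmd14 relative to siSox2 (adjusted p = 0.271) and -0.39 in siDdb1 relative to siSox2 (adjusted p = 0.283), so the difference between knockdowns did not pass on this probe set.

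The call of Ube2h in siSox2 rested on every control and siSox2 array. It was lost without siNonTarget replicate 1 (0.91, limma adjusted p = 0.0847), siNonTarget replicate 2 (0.66, 0.246), siSox2 replicate 1 (0.86, 0.0624) or siSox2 replicate 2 (0.71, 0.263), and with 16 intensity units added before log2 (0.76, 0.0582). The direction stayed the same. In bulk RNA such as this, fewer cells of a type and less RNA per cell cannot be told apart. The summed intensity of the 11 trophectoderm markers was 15228 to 27847 in siSox2, 9952 to 11696 in siPsmd14, 3766 to 4005 in siDdb1 and 2666 to 3009 in siNonTarget. That of the 18 fibroblast markers was 3488 to 5886 in siSox2, 3417 to 4409 in siPsmd14, 2199 to 2927 in siDdb1 and 1527 to 1767 in siNonTarget. Such sums weigh bright genes most, in siSox2 and siPsmd14 Krt8 and Krt18 for trophectoderm and Tagln for fibroblasts. The median log2 fold changes in siSox2, siPsmd14 and siDdb1 were 2.33, 0.80 and 0.54 for the trophectoderm markers. For the 18 fibroblast markers they were 0.18, 0.07 and 0.03. Between 9 and 11 of these 18 were below the array median on both arrays of a group. The part of these markers, and of the stem cell markers, in the Ube2h result was not tested.

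Ube2h was read by 4 probe sets, and the dimmer ones gave larger siSox2 differences. The second-brightest read 7.03 and 7.0 in siNonTarget, 8.33 and 8.79 in siSox2, 7.24 and 7.80 in siPsmd14, with 7.79 and 7.58 in siDdb1. Its siSox2 difference was 1.55 (limma adjusted p = 0.00718). Here the siPsmd14 level was below siSox2 by a called difference (-1.04, adjusted p = 0.0377), and siDdb1 missed the threshold (-0.88, adjusted p = 0.0662). Its siSox2 call was lost without siNonTarget replicate 1 (limma adjusted p = 0.0631), siNonTarget replicate 2 (0.0962) or siSox2 replicate 2 (0.0635). Its difference between siPsmd14 and siSox2 stayed past the threshold only without siSox2 replicate 1 (0.0379) or siPsmd14 replicate 2 (0.0195).

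The third probe set of Ube2h read 7.09 and 6.46 in siNonTarget, 8.06 and 8.32 in siSox2, 6.93 and 7.34 in siPsmd14, with 6.91 and 7.04 in siDdb1. Both siSox2 arrays lay above the rest, by 1.42 log2 units over siNonTarget (limma adjusted p = 0.0124). Relative to siSox2 it differed by -1.06 in siPsmd14 (adjusted p = 0.0422) and by -1.22 in siDdb1 (adjusted p = 0.0223). The siSox2 call of this probe set was lost without siNonTarget replicate 2 (limma adjusted p = 0.107) or siSox2 replicate 2 (0.119). Relative to siSox2, its siPsmd14 call was lost without either siSox2 array (0.0829 and 0.252), without siPsmd14 replicate 1 (0.214) and without either siDdb1 array (0.0611). Its siDdb1 call was lost without siSox2 replicate 2 (0.173), siDdb1 replicate 1 (0.136) or siDdb1 replicate 2 (0.0731).

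The fourth Ube2h probe set read 5.39 and 4.75 in siNonTarget and 5.94 and 5.89 in siSox2, with siPsmd14 and siDdb1 arrays between 5.11 and 5.60, and its siSox2 difference of 0.84 missed the threshold (adjusted p = 0.0927). Whether the 4 probe sets read different transcripts of Ube2h, or also those of other genes, was not tested.

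**Figure D3:**
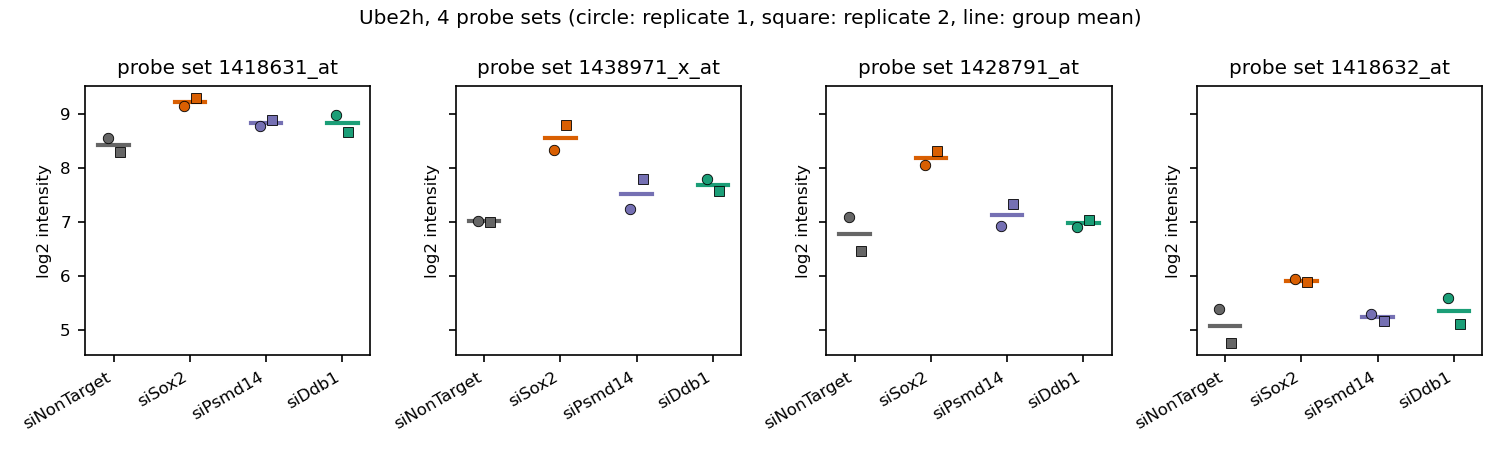
Log2 level of the 4 Ube2h probe sets (one panel each) on every array, with points for arrays and lines for group means. The siSox2 arrays are the highest in each panel, with differences from siNonTarget of 0.78, 1.55, 1.42 and 0.84.

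The stretches before the annotated starts of Ube2h are shown because Ube2h is the gene that rose. They come from RefSeq on GRCm38.p6, lie on the minus strand of chromosome 6, and end at the base before the start. They are chr6:30304540-30304789 and chr6:30243804-30244053, each 250 bases, printed 5′ to 3′. Capitals mark a match to TGACGTCA, the cAMP response element, which was found once, at -24 relative to the start, in the first stretch. The stretches were searched on both strands for ACAAAG and ACAATG, which SOX factors can bind, and for TGACGTCA, CCAAT and TTTGAA, and no other match was found.
Ube2h, first start: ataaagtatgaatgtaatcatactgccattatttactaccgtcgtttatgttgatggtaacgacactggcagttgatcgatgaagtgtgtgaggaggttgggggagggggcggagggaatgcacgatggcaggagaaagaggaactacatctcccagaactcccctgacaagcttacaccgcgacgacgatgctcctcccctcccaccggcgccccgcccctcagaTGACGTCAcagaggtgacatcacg
Ube2h, second start: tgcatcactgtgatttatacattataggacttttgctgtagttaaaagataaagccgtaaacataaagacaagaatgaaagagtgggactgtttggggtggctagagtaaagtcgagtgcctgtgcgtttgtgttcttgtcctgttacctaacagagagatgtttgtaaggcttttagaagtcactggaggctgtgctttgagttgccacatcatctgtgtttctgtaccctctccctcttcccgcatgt
Of 32851 windows of the same length before annotated starts, 16.5% held ACAAAG, 10.7% held ACAATG, 1.55% held TGACGTCA, 33.8% held CCAAT and 16% held TTTGAA. A match describes letters only. Promoter windows were found for 27 of the 33 members, and those without one are Ube2d2a, Ube2e3, Ube2g2, Ube2o, Ube2v2 and Ube2w.

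Ube2o, an unusually large E2 that also acts as a ligase, read 8.40 and 8.13 log2 units in siNonTarget, 8.16 and 8.13 in siSox2, 8.94 and 8.70 in siPsmd14, with 8.02 and 8.05 in siDdb1. Both siPsmd14 arrays were higher than the other 6, the siSox2 arrays overlapped the control, and the siDdb1 arrays lay below both controls. It was read by 1 probe set. Against siNonTarget the siPsmd14 difference was 0.56 (SE 0.14, interval 0.24 to 0.88, limma adjusted p = 0.107), which did not pass.

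Against siSox2, Ube2o was higher in siPsmd14 by 0.68 log2 units, or 1.60-fold (interval 0.36 to 1.0, limma adjusted p = 0.0423). Against siDdb1 it was higher by 0.79, or 1.72-fold (interval 0.46 to 1.11, adjusted p = 0.0652), which did not pass. The call against siSox2 was lost on leaving out any array other than siPsmd14 replicate 2. Its adjusted p was then 0.0591 without either siNonTarget array, 0.130 and 0.223 without siSox2 replicates 1 and 2, 0.200 without siPsmd14 replicate 1, and 0.0629 without either siDdb1 array. It was also lost with array medians subtracted (0.0528), with 16 intensity units added (0.0529) and with only the 4 arrays of the comparison (0.108). The difference from siDdb1 passed without siPsmd14 replicate 2 (adjusted p = 0.0382).

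The siPsmd14 arrays also differed in signs of RNA quality. The log2 difference between 3′ and 5′ Actb probe sets reached 0.346 on siPsmd14 replicate 1, above a span of 0.0962 to 0.214 elsewhere. For 18S rRNA, siPsmd14 replicate 2 had a log2 level of 12.5 and siDdb1 replicate 2 one of 12.0, above 10.4 to 11.4 elsewhere. The part of these values in the Ube2o result was not tested.

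Ube2r2, a partner of cullin-RING ligases like Cdc34, read 9.86 and 9.96 in siNonTarget, 10.26 and 10.36 in siSox2, 10.26 and 10.36 in siPsmd14, with 9.90 and 10.09 in siDdb1. The siSox2 and siPsmd14 arrays lay above both controls, and siDdb1 overlapped them. The difference was 0.40 in siSox2 (limma adjusted p = 0.164) and 0.40 in siPsmd14 (adjusted p = 0.183), and neither passed. On its other probe set the siSox2 difference was 0.15 and the siPsmd14 difference -0.02.

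Ube2h, Ube2o and Ube2r2 belong to a group of 9 E2s outside the role groups that follow, with median log2 fold changes of 0.18 in siSox2, 0.10 in siPsmd14 and 0.00 in siDdb1. Ube2ql1 and Ube2u, of the same group, were dim. Ube2ql1 read 4.98 and 4.97 in siNonTarget, 4.69 and 4.76 in siSox2, 4.69 and 4.87 in siPsmd14, with 4.59 and 4.70 in siDdb1. All 6 knockdown arrays lay below both controls, and the siDdb1 difference was -0.33 (limma adjusted p = 0.529). On the other probe set of Ube2ql1 it was 0.10. Ube2u read 3.29 and 3.36 in siNonTarget, 3.40 and 3.62 in siSox2, 3.49 and 3.18 in siPsmd14, with 3.74 and 3.50 in siDdb1. The siDdb1 arrays were above the controls by 0.29 (adjusted p = 0.699), at a level below the array median.

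**Figure D4:**
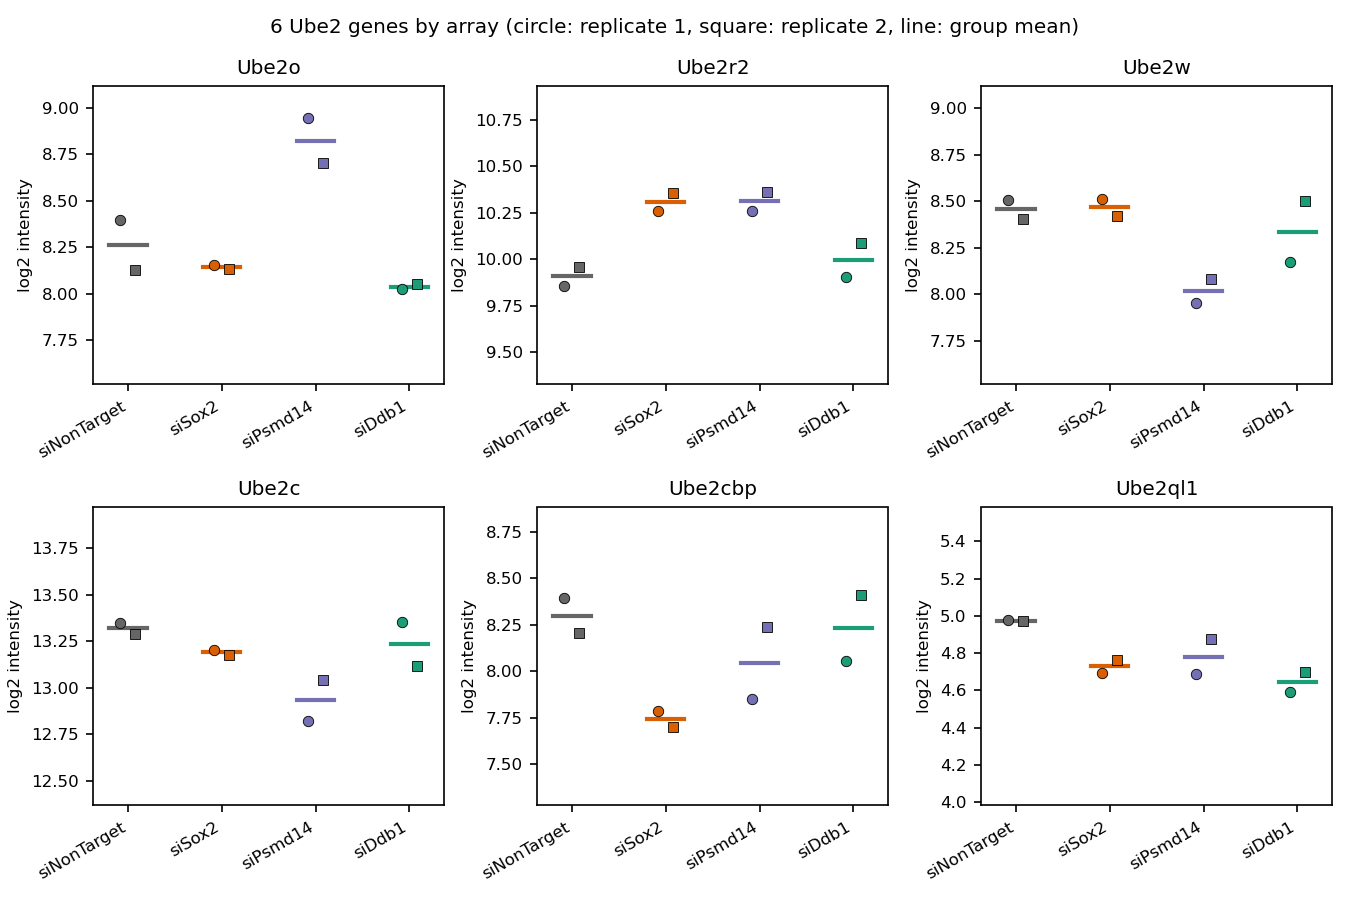
Log2 level of Ube2o, Ube2r2, Ube2w, Ube2c, Ube2cbp and Ube2ql1 (panels) on each array, with points for arrays and lines for group means. Ube2o is highest on the siPsmd14 arrays, at 8.94 and 8.70, and Ube2r2 is at 10.26 and 10.36 in both siSox2 and siPsmd14.

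Of the 8 broad initiators, E2s of the Ube2d and Ube2e types that attach the first ubiquitin and Ube2w, which favours protein N-termini, 0 passed limma's threshold in any comparison. Their median log2 fold change was 0.01 in siSox2, -0.03 in siPsmd14 and -0.11 in siDdb1, beside -0.03, -0.01 and -0.01 over all genes. They ran from -0.13 (Ube2d2b) to 0.36 (Ube2e2) in siSox2, from -0.44 (Ube2w) to 0.42 (Ube2d2a) in siPsmd14 and from -0.22 (Ube2d1) to 0.20 (Ube2d2a) in siDdb1. Ube2w read 8.50 and 8.41 in siNonTarget, 8.51 and 8.42 in siSox2, 7.95 and 8.08 in siPsmd14, with 8.17 and 8.50 in siDdb1. Both siPsmd14 arrays were the lowest of the 8, by -0.44 against siNonTarget (limma adjusted p = 0.198). Ube2w has 4 probe sets, and the others differed in siPsmd14 by -0.13, -0.03 and -0.38. Ube2d2b, the member with the lowest signal, stayed between 2.66 and 2.98 on all 8 arrays, and its groups overlapped.

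Ube2c and Ube2s start and extend the ubiquitin chains that the anaphase-promoting complex builds. Ube2c, the member with the highest signal, read 13.35 and 13.29 in siNonTarget, 13.20 and 13.17 in siSox2, 12.82 and 13.04 in siPsmd14, with 13.35 and 13.12 in siDdb1. The siPsmd14 arrays were the lowest 2, by -0.39 against siNonTarget (limma adjusted p = 0.232), and did not pass. Ube2s differed by -0.17 in siPsmd14 and by -0.01 and -0.03 in the other knockdowns.

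A list of 21 measured mitotic genes had a median log2 fold change of -0.20 in siPsmd14, with 19 of 21 below 0 and none called, beside a median of -0.01 over all genes. Its summed intensity was 35744 to 39490 in siPsmd14 and 43094 to 44308 in siNonTarget. The part of mitotic genes in the Ube2c values was not tested. The stretches before the starts of Ube2c and Ube2s are shown because both serve the same ligase. They are chr2:164769679-164769928 on the plus strand and chr7:4812341-4812590 on the minus strand, from RefSeq on GRCm38.p6.
Ube2c: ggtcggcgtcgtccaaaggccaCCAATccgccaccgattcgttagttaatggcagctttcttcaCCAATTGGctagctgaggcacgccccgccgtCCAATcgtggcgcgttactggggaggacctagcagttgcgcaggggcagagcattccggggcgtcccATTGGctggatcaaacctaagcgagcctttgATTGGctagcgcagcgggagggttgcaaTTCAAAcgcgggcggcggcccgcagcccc
Ube2s: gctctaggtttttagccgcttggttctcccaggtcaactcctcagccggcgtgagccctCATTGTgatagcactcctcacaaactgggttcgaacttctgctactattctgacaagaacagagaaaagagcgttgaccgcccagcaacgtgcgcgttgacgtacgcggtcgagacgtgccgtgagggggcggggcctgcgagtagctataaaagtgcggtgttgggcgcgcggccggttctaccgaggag
Capitals mark the matches on either strand. Ube2c held 6 matches to CCAAT, of which 1 pair overlaps on opposite strands, and 1 to TTTGAA, the cell cycle homology region, at -29. Ube2s held 1 match, to ACAATG, at -191.

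The 6 E2s and variants of DNA damage tolerance and repair, among them the Rad18 partners Ube2a and Ube2b and the Fanconi anaemia E2 Ube2t, had 0 called members in limma. Their log2 fold changes ran from -0.27 (Ube2t) to 0.08 (Ube2b) in siSox2, from -0.17 (Ube2n) to 0.48 (Ube2v2) in siPsmd14 and from -0.12 (Ube2a) to 0.21 (Ube2t) in siDdb1. The medians were -0.12, 0.13 and 0.01. Ube2v2 has 4 probe sets, and its 0.48 is from the brightest. On no other probe set of Ube2v2 did both siPsmd14 arrays lie above both controls. The 4 E2s of endoplasmic reticulum degradation, among them the membrane-anchored Ube2j1 and Ube2j2, also had 0 called members. Theirs ran from -0.30 (Ube2g1) to 0.28 (Ube2j1) in siSox2, from -0.17 to 0.00 in siPsmd14 and from -0.16 to 0.15 in siDdb1.

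Ube2f, a NEDD8 E2, and Ube2l6, the ISG15 E2, were not called either. Ube2f differed by 0.34, 0.17 and 0.03 in siSox2, siPsmd14 and siDdb1, and Ube2l6 by 0.10, -0.12 and -0.08. Ube2l6 read below the array median on all 8 arrays. The 16 measured interferon-response genes include targets of the signal that induces Ube2l6. In each group, 8 or 9 of the 16 lay below the array median on both arrays. In siSox2, beside 4.28% of all genes called, 2 fell, Ifitm3 (-0.95, limma adjusted p = 0.0174) and Ddx58 (-0.61, adjusted p = 0.0477). Without either control array or siSox2 replicate 2 neither passed, and Ddx58 was also lost without siSox2 replicate 1 (0.149) or either siDdb1 array (0.0661).

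Ube2cbp read 8.39 and 8.20 in siNonTarget, 7.79 and 7.70 in siSox2, 7.85 and 8.24 in siPsmd14, with 8.05 and 8.41 in siDdb1. Both siSox2 arrays were the lowest of the 8, by -0.55 against siNonTarget (SE 0.17, limma adjusted p = 0.158), which did not pass. Ube2d-ps differed by -0.37 in siSox2 (adjusted p = 0.240), -0.08 in siPsmd14 and -0.26 in siDdb1. On its other, dimmer probe set the differences were 0.17, 0.12 and -0.002.

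Genes that work before and after the E2s were given by lists. Of 6 measured E1 enzymes of 9 listed, 3 of 10 ubiquitin and ubiquitin-like modifiers, and 8 of 9 E2 or E2-variant genes without the Ube2 symbol, none was called against siNonTarget in limma. Of 34 measured ligases and cofactors of 35 listed, 1 was called in siSox2, beside 4.28% of all genes. None was called in siPsmd14 or siDdb1, beside 1.89% and 0.0440% of all genes. Fancl, the ligase partner of Ube2t, read 9.98 and 9.80 in siNonTarget, 9.33 and 8.93 in siSox2, 9.65 and 9.57 in siPsmd14, with 9.74 and 9.89 in siDdb1. Both siSox2 arrays were the lowest, and it fell by 0.76 (SE 0.16, limma adjusted p = 0.0394). The Fancl call was lost on leaving out any array other than siSox2 replicate 1, with adjusted p from 0.0516 to 0.308. Ube2t itself read 9.22 and 9.17 in siNonTarget and 8.98 and 8.86 in siSox2, a difference of -0.27 that did not pass.

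Of the genes named from these lists that did not pass, Sumo3 differed by -0.51 in siPsmd14 (limma adjusted p = 0.119) and Ube4b, a chain-elongating ligase, by 0.55 (adjusted p = 0.116). Cdc34, the cullin-RING E2 without the Ube2 symbol, differed by 0.17, 0.25 and 0.00 in siSox2, siPsmd14 and siDdb1.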

How the data were processed

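Expression was measured on Affymetrix arrays from 5 ng of total RNA, amplified and biotin-labelled per the labels' protocols, in 4 groups of 2 arrays grouped by title. The deposited intensity values, on a linear scale, were computed by the authors with RMA per the submitters' processing notes. RMA in its usual form equalises the arrays' distributions, so a shift shared by all genes is hidden. Neither its version nor its settings were given in the sources used here. Precision is limited by the number of arrays.

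The 64 control probe sets were left out of 45101, leaving 45037. Log2 was taken of the deposited intensity values, and limma 3.58.1 in R 4.3.3 (lmFit and eBayes, 9.02 total degrees of freedom) was fitted on all 8 arrays with no replicate block. P-values were adjusted by Benjamini-Hochberg over all probe sets. Platform annotation gave 34945 probe sets 1 symbol, and each gene was read by its brightest probe set. The code was tested on simulated data.

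Values by array are given for members called in any comparison, the 3 with the smallest p in each comparison with siNonTarget, and the brightest and dimmest. Ube2t, outside this rule, was added after its values were seen. From each list of other genes, at most the 3 with the smallest p in a comparison are named. Elf5, Col1a1 and Col3a1, defining markers of their cell types, were named outside this rule after their values were seen. Other members appear by range within their role. The members and lists were chosen with earlier results of these data known. Alternatives were 2 filters on dim probe sets, array medians subtracted, quantile normalization, 16 intensity units added before log2, trend and robust eBayes, array weights, the 4 arrays compared alone, a replicate block, 1 probe set per gene, the second-brightest probe set, an adjusted p of 0.01 and leaving out each array. Promoter sequences are RefSeq's.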

Additional observations from a re-analysis of the deposited data

How the results depend on the processing

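Of 356 gene values under 20 alternative settings, 350 kept their direction, and 100 of 120 counts of called members stayed within 1.5 times of the original. Many of these settings cannot change a log2 fold change, so the direction was fixed there. They are the 2 filters, trend and robust eBayes, the 4 arrays alone, the block, 1 probe set per gene and the stricter adjusted p. Leaving out an array of a group not compared cannot change it either. Counts that were 0 could only stay at 0 or rise. The count in siSox2 against siNonTarget went from 1 to 0 with 16 intensity units added before log2 and at an adjusted p of 0.01, and ranged from 0 to 1 on leaving out each array. The count between siPsmd14 and siSox2 went from 1 to 0 with array medians subtracted, with 16 intensity units added, with only the 4 arrays compared and at an adjusted p of 0.01, and to 2 (Ube2h and Ube2o) with the second-brightest probe set. It ranged from 0 to 1 on leaving out each array. The count between siPsmd14 and siDdb1 went from 0 to 1 when adjusted over 1 probe set per gene, and ranged from 0 to 1 on leaving out each array. The values that reversed were, with the second-brightest probe set, Ube2r2 in siPsmd14 (-0.021), Ube2ql1 in siDdb1 (0.10) and Ube2h between siPsmd14 and siDdb1 (-0.17). On leaving out each array, Ube2o in siSox2 ranged from -0.252 to 0.017, the latter without siNonTarget replicate 1, and Ube2h between siPsmd14 and siDdb1 ranged from -0.152 to 0.158, below 0 without siPsmd14 replicate 2 or siDdb1 replicate 2. The cause was not tested. Leaving out an array was also applied to the dimmer Ube2h probe sets and to Fancl, Ifitm3, Ddx58 and Esrrb, chosen after seeing the data, and none changed direction. Where a group then has 1 array, it is assumed to vary like the other groups. With the replicate number as a block, each count was the same as without it, 1 in siSox2 against siNonTarget, 1 between siPsmd14 and siSox2 and 0 in the other comparisons. Same-numbered arrays' deviations correlated from -0.217 to 0.242 over the 6 pairs of groups. In every group replicate 2 had a higher 18S rRNA level than replicate 1. These values do not settle whether same-numbered arrays share more than a number. The filters on dim probe sets left out 4 members, Ube2d2b, Ube2l6, Ube2ql1 and Ube2u, which have no value there. With 2 arrays per group, changes within about the interval given above could not be told from 0. That interval is not adjusted for the number of probe sets, and larger differences also missed the threshold. Among them were Ube2o in siPsmd14 (0.56, limma adjusted p = 0.107) and Ube2cbp in siSox2 (-0.55, adjusted p = 0.158). Dim probe sets give less reliable changes.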

Other observations

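Ube2l3, the E2 that works with the ligases of the RBR type, such as Arih1, was not among the members, because each of the 4 probe sets that carry it lists 5 gene symbols. These probe sets could read any of those genes, so no level is assigned to Ube2l3 here. On the brightest of the 4 the values were 12.47 and 12.33 with siNonTarget, 12.49 and 12.48 with siSox2, 12.46 and 12.52 with siPsmd14, and 12.29 and 12.48 with siDdb1. The siSox2 values lay above both siNonTarget and both siDdb1 values, and the other pairs of groups overlapped. Over the 4 probe sets, log2 fold changes ran from 0.06 to 0.26 in siSox2, from -0.15 to 0.18 in siPsmd14 and from -0.05 to 0.07 in siDdb1, and limma called none of them.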
